A study of Mus musculus with 4 samples.

Results

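Genes of the centromere and kinetochore were followed in sorted leukemic blasts of mice, taken from the spleen and from the peripheral blood of 2 animals. The members were 40 genes chosen by name, of 18193 genes that have a probe set of their own in the annotation of the array, and all 40 were measured, by 85 probe sets in all. Each gene is represented by its brightest probe set over the 4 arrays. A level below is a probe set intensity on the linear scale as deposited. A difference is spleen minus blood on the log2(intensity + 16) scale, on which changes of dim genes come out too small. Of the 40 members, 39 reached the brightness filter, a mean over the 4 arrays of at least 106, and were tested, and Ska3 did not. The lowest mean in blood of a tested member was 151, so none passed through its spleen arrays alone.

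The 2 spleen arrays held GFP-positive blasts of mouse 1 and mouse 2, and the 2 blood arrays held GFP-positive blasts from the circulation of the same animals. All 4 samples share their origin: fetal progenitors with a mutant Gata1, named Gata1s in the title, turned leukemic by retroviral insertional mutagenesis, with the GFP reporter carried by the virus. The cells were untreated and were not cultured. Both mice carry one leukemia designation, their ages are not given in the sources used here, and the spread between replicates is the spread between these 2 animals.

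The kinetochore is the protein structure that attaches a chromosome to the spindle during cell division. Its inner layer sits on nucleosomes that contain the histone variant CENP-A and stays at the centromere through the cell cycle, and its outer layer is built in mitosis and binds microtubules. Checkpoint proteins on kinetochores without attachment hold back anaphase, the chromosomal passenger complex corrects wrong attachments, and shugoshins shield the cohesin that joins sister centromeres. Transcripts of many of these proteins are made mainly in the later part of the cell cycle, while others are made throughout it.

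The 4 arrays had median intensities between 103.7 and 110.6, and 3' to 5' ratios of at most 1.26 for actin and between 0.909 and 1.01 for Gapdh. Megakaryocyte genes were bright, with 11 of 12 measured markers above the filter on every array. The integrin chain Itgb3 was the exception, with intensities of 39.7 and 123 in spleen, against 15.9 and -4.17 in blood of mouse 1 and mouse 2. Markers of other blood cells differed between the arrays and are given after the members.

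In both animals most centromere and kinetochore genes had higher intensities in spleen, with medians close to each other in the 2 mice. Of the 39 tested members, 35 (89.7%) were higher in spleen in both mice, against 38.5% of the 11614 genes tested, and 1 was lower in both, Nsl1, against 25.1%. In 33 members (84.6%) both spleen arrays lay above both blood arrays, which held for 27.5% of all genes tested, and in 1 member, Nsl1, both lay below, against 17.6% of all genes. A difference of at least 1.5-fold toward spleen in both mice was reached by 15 members (38.5%), against 0.87% of all genes, and a difference of at least 2-fold in both mice by 0 members, against 0.0603%. The median difference of the tested members was 0.47 in mouse 1 and 0.46 in mouse 2, beside 0.07 and 0.01 for all genes tested. Over all 40 members the median of both mice was 0.46. In bulk samples such as these, fewer cells of a type and less RNA per cell cannot be told apart.

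No single member passed the test over all genes. By limma with Benjamini-Hochberg adjustment, 0.0% of the 11614 genes had an adjusted p under 0.05, and 0 of 39 members did. Without spleen replicate 1 the count was 20 genes, 2 of them higher in spleen. The adjusted p of the members ran from 0.140 to 0.970. At an unadjusted p under 0.05, 28 members (71.8%) were higher in spleen, against 8.12% of all genes, and 0 were lower, against 4.31%. A prior variance with an intensity trend called 45 genes, 23 of them higher in spleen (0.198% of all genes), and 4 of the 23 were members: Birc5 at an adjusted p of 0.046 and Cenpa, Cenpf and Spc25 at 0.049 each. With 2 arrays per tissue the median SE of a member's difference was 0.12.

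**Figure D1:**
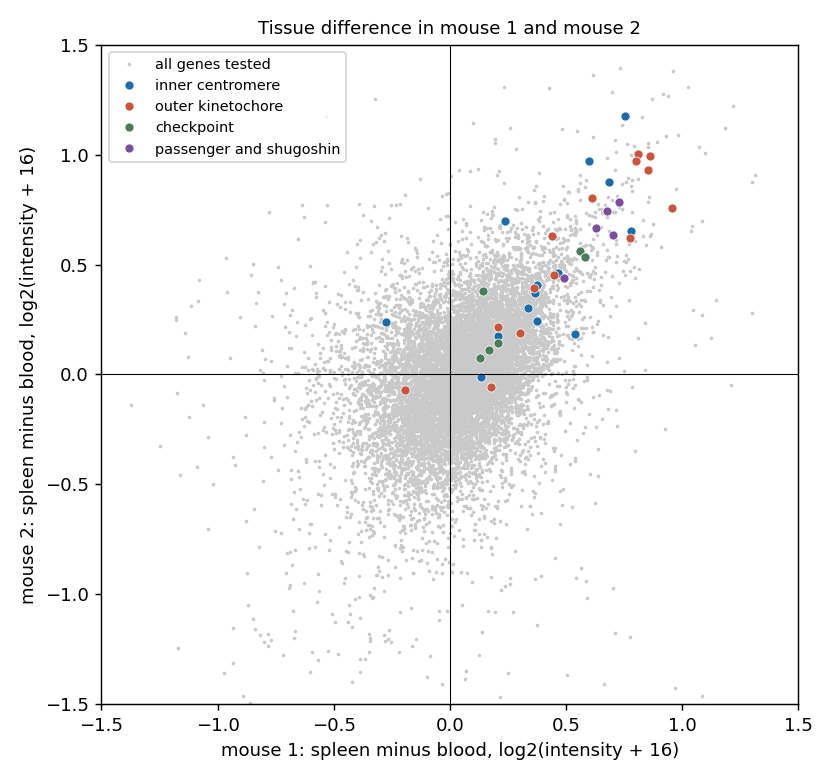
Each point is a gene, placed by its spleen minus blood difference on the log2(intensity + 16) scale in mouse 1 (horizontal) and in mouse 2 (vertical). Grey points are the 11614 genes tested, of which 74 lie outside the axes, and coloured points are the 39 tested members by role. The members lie mainly at the upper right, with 35 of them above 0 on both axes.

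The roles differed in size. The median difference was 0.38 for the 14 inner centromere members, 0.62 for the 14 tested outer kinetochore members, 0.22 for the 6 checkpoint members and 0.67 for the 5 passenger and shugoshin members. In mouse 1 these medians were 0.38, 0.53, 0.19 and 0.68, and in mouse 2 they were 0.39, 0.63, 0.26 and 0.67. The checkpoint group was lowest in each animal, while the order of the outer kinetochore and the passenger and shugoshin groups depended on the setting. With the stricter filter they stood at 0.70 and 0.67, and without spleen replicate 2 at 0.59 and 0.58. The value for checkpoint members was 0.39 without spleen replicate 1 and 0.35 without blood replicate 2. The 6 checkpoint members do not include the checkpoint genes Bub1, Bub1b and Ttk. Those are counted among the other genes of the pathway and differed by 1.05, 0.70 and 0.82. The low median therefore holds for these 6 members and not for checkpoint genes in general. The inner centromere and outer kinetochore groups hold genes with large differences beside genes with almost none, as the plot of within-mouse differences shows. Checkpoint members ran from 0.10 to 0.56, and passenger and shugoshin members from 0.47 to 0.76. No test between roles was made.

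**Figure D2:**
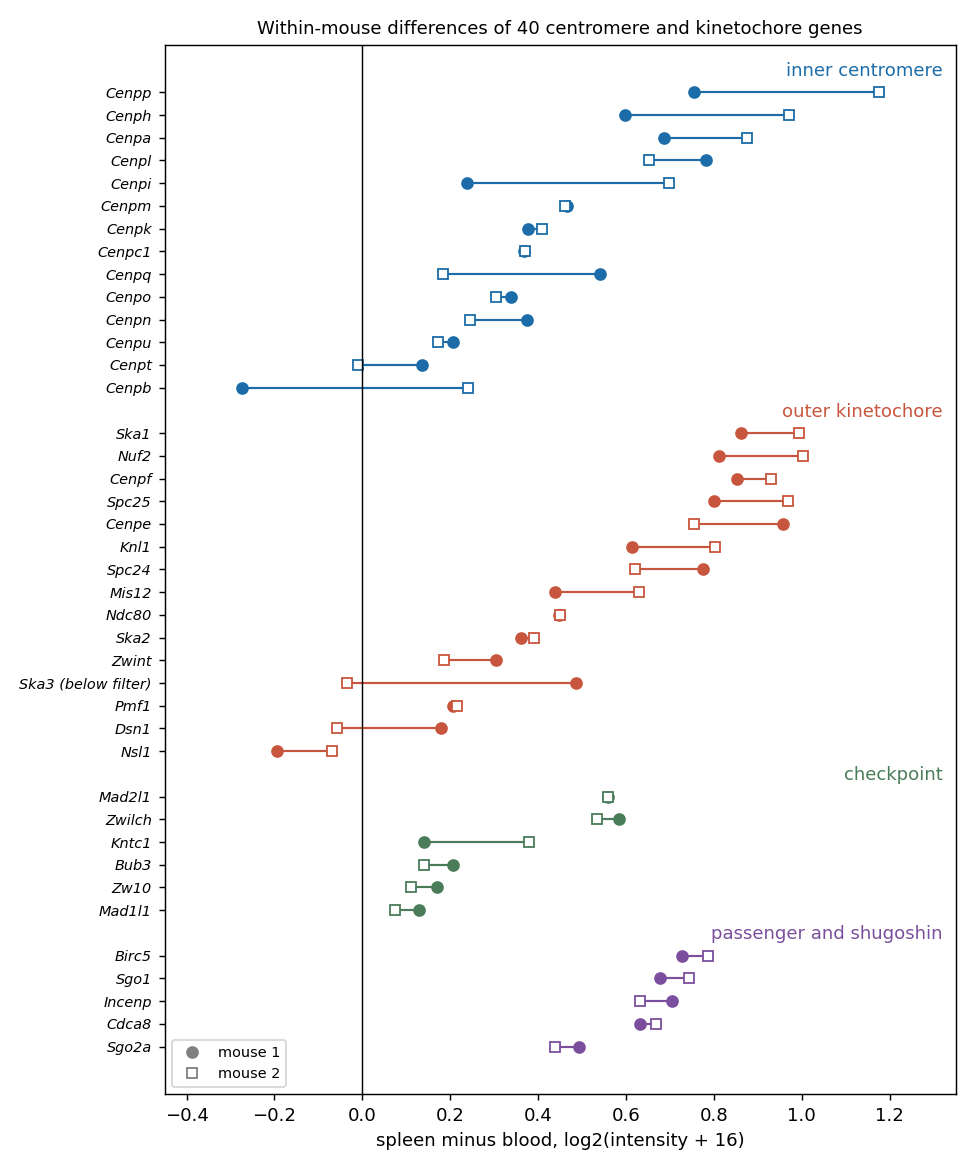
Spleen minus blood on the log2(intensity + 16) scale (horizontal) for each of the 40 genes, in mouse 1 (filled circle) and mouse 2 (open square), grouped and coloured by role. All 5 passenger and shugoshin genes and all 6 checkpoint genes lie right of 0 in both mice, while Cenpb, Cenpt, Dsn1 and Ska3 have their 2 mice on opposite sides of 0 and Nsl1 lies left of it.

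Promoters of genes of late cell cycle phases are known to carry a CCAAT box, bound by NF-Y, and a cell cycle genes homology region, bound by the MuvB complexes. The part of either in the differences between the tissues was not tested. Windows of 300 bases, 250 before and 50 from the annotated start, were taken from RefSeq (GRCm38.p6) for 35 of the 40 members. Among genes with 1 window, this start was the start of the gene record in 74.7%, and positions below count from the start of the window's own annotation. The stretches printed here run from 150 bases before the start to 30 bases from it, 5′ to 3′ on the strand of the gene. Capitals mark CCAAT or its reverse ATTGG, and TTTGAA or TTCGAA or their reverse. The first 4 hold both kinds of match, and the other 3 hold neither: Nuf2 and Birc5, which had large differences, and Dsn1, which had almost none. In the whole window 11 of 35 members (31.4%) hold both kinds, against 6.63% of tested genes. Their differences ran from 0.17, in Bub3, to 0.89, so the 4 printed do not show the range. The median was 0.65 for these 11 and 0.39 for the 23 other tested members with a window. The stretches are Cenpa at chr5:30666736-30666915 (+), Cenpf at chr1:189688057-189688236 (-), Spc25 at chr2:69206184-69206363 (-), Cdca8 at chr4:124936888-124937067 (-), Nuf2 at chr1:169531435-169531614 (-), Birc5 at chr11:117849087-117849266 (+) and Dsn1 at chr2:157007046-157007225 (-).
Cenpa: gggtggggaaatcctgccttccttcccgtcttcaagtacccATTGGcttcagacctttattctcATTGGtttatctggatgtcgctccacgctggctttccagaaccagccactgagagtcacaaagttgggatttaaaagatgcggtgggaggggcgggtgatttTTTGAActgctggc
Cenpf: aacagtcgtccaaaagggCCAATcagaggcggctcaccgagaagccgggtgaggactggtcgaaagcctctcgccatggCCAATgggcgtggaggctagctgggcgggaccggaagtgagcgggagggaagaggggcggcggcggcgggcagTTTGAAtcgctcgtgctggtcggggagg
Spc25: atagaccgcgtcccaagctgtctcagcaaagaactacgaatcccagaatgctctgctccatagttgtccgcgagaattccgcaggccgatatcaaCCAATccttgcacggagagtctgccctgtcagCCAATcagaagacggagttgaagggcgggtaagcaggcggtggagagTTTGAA
Cdca8: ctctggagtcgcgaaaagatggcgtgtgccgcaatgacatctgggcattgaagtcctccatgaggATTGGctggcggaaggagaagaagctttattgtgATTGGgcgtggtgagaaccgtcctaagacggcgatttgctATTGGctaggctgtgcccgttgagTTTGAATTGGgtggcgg
Nuf2: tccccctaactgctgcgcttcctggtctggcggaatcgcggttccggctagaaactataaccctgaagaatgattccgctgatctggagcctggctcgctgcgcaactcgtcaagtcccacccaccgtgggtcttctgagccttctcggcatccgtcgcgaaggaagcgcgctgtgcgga
Birc5: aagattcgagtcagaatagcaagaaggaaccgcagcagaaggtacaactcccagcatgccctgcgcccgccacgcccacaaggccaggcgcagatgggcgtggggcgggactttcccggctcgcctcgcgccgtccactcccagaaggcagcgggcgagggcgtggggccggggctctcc
Dsn1: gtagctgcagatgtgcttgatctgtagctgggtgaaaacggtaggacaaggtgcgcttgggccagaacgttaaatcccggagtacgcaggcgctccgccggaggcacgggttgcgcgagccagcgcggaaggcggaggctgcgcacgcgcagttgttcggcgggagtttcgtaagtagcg

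In Cenpf the homology region TTTGAA covered bases 3 to 8 from the start, in Cdca8 bases 14 to 19, in Cenpa bases 17 to 22 and in Spc25 bases 25 to 30. In Cdca8 it overlaps a reversed CCAAT box. On either strand of the whole window, CCAAT was held by 22 of 35 members (62.9%), against 42.1% of the 9406 tested genes with a window and 37.4% of all 32851 windows. TTTGAA or TTCGAA on either strand was held by 15 of 35 members (42.9%), against 16.2% of tested genes and 19.2% of all windows. An E2F-type site, TTTCGCGC or TTTGGCGC on either strand, was held by 1 member, Cenpl, against 1.84% of tested genes and 0.813% of all windows. These are matches of letters, not known sites. A member or tested gene was counted when any of its windows held a match, while the share of all windows counts each window by itself. The median difference was 0.46 for the 22 tested members with CCAAT and 0.39 for the 12 without, and 0.56 for the 14 tested members with the homology region and 0.38 for the 20 without.

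Members with the homology region close to the start, a position chosen after the matches were seen, are given apart from that split. On the strand of the gene and within 50 bases of the start it was held by 6 members, Cenpa, Cenpf, Spc25, Cdca8, Knl1 and Sgo1, or 17.1% of 35, against 2.69% of tested genes and 3.09% of all windows. Their differences lay between 0.65 and 0.89, with a median of 0.75, and the other 28 tested members with a window had a median of 0.37. Over all tested genes the medians were 0.11 with such a match and 0.03 without. Restriction to the strand of the gene leaves out matches on the other strand within 50 bases of the start. Bub3, Kntc1, Cenpn and Ndc80 hold these and differed by 0.17, 0.26, 0.31 and 0.45, and so does Ska3, below the filter, at 0.23. The narrow range of the 6 members thus rests on this choice of strand. Nuf2, Birc5 and Cenpp, whose windows hold none of these letters, differed by 0.91, 0.76 and 0.97.

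Among the inner centromere members, the genes with the largest differences were Cenpp, Cenph, Cenpa and Cenpl, and the DNA-binding proteins Cenpb and Cenpt were among those with the smallest. Cenpp, a subunit of the CENP-O complex of the inner kinetochore, had intensities of 513 and 648 in spleen of mouse 1 and mouse 2, against 297 and 278 in blood. Cenpa, the histone H3 variant that marks the centromere, had 2217 and 2385 in spleen, against 1371 and 1292 in blood. For both genes the spleen arrays lay clear of the blood arrays. Cenpp was 1.95-fold higher in spleen (difference 0.97 ± 0.15, SE, 2 arrays per tissue; limma adjusted p = 0.140) and Cenpa 1.72-fold higher (0.78 ± 0.12, limma adjusted p = 0.140). Averaged over their probe sets, the differences were 0.56 for Cenpp and 0.30 for Cenpa.

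Cenph, Cenpi, Cenpk and Cenpm encode the subunits of one complex, and their differences were unequal. Cenph stood at 493 and 612 in spleen of mouse 1 and mouse 2, against 321 and 304 in blood, a difference of 0.78 ± 0.14. Cenpm stood at 320 and 379 in spleen, against 227 and 271 in blood, a difference of 0.46 ± 0.15. Cenpk had 535 and 630 in spleen and 408 and 471 in blood, a difference of 0.39 ± 0.14. With the mean of its 3 probe sets, 2 of them above the filter, Cenpk differed by 0.16. In each of these genes both spleen arrays were above both blood arrays. Cenpi had 185 and 250 in spleen and 155 and 148 in blood, and its difference of 0.47 ± 0.16 was made up of 0.24 in mouse 1 and 0.70 in mouse 2. Without spleen replicate 2 it was 0.27.

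Cenpl and Cenpn form a pair in which CENP-N recognises the CENP-A nucleosome. Cenpl had intensities of 286 and 258 in spleen and 160 and 159 in blood, with a difference of 0.72 ± 0.12. Cenpn by its brightest probe set had 540 and 549 in spleen and 413 and 461 in blood, a difference of 0.31 ± 0.12. Its other probe set gave 383 and 380 in spleen, against 206 and 216 in blood, and a difference of 0.81, nearer to that of Cenpl. That probe set is of the _s_at type, which can match transcripts of several genes. Without _s_at and _x_at probe sets the value for Cenpn was 0.31. The 2 probe sets of Cenpn had the same direction and unequal size.

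Cenpc1, which ties the CENP-A nucleosome to the outer layer, had 624 and 596 in spleen of mouse 1 and mouse 2 and 481 and 458 in blood, and a difference of 0.37 in each mouse. Of the rest of the CENP-O complex, Cenpq had 940 and 872 in spleen, against 641 and 765 in blood, and differed by 0.54 in mouse 1 and 0.18 in mouse 2. Without blood replicate 1 the value for Cenpq was 0.24. Cenpu, a docking site for the kinase Plk1, had 242 and 245 in spleen and 208 and 215 in blood, with a difference of 0.19 ± 0.11. All 3 genes were brighter on both spleen arrays than on both blood arrays.

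Cenpo had 532 and 558 in spleen, against 418 and 449 in blood, and a difference of 0.32 ± 0.11. Its brightest probe set is of the _s_at type, which like the _x_at type can match transcripts of several genes. Of its 6 probe sets, 3 had the direction of that one. Without probe sets of these types Cenpo differed by -0.09, and with the mean of all 6 by 0.05. Of its 3 probe sets above the filter only the brightest was higher in spleen in the mean of the mice.

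Cenpb, which binds a short DNA motif in centromeric satellites, had 193 and 240 in spleen of mouse 1 and mouse 2, against 237 and 201 in blood. The tissues crossed over, with differences of -0.27 in mouse 1 and 0.24 in mouse 2, and the fitted difference was -0.02 ± 0.15. Cenpt, a DNA-binding protein that recruits the Ndc80 complex, had 545 and 616 in spleen and 494 and 621 in blood. Both arrays of mouse 2 lay above those in blood of mouse 1, the tissues overlapped, and the difference was 0.06 ± 0.15 (limma adjusted p = 0.891).

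**Figure D3:**
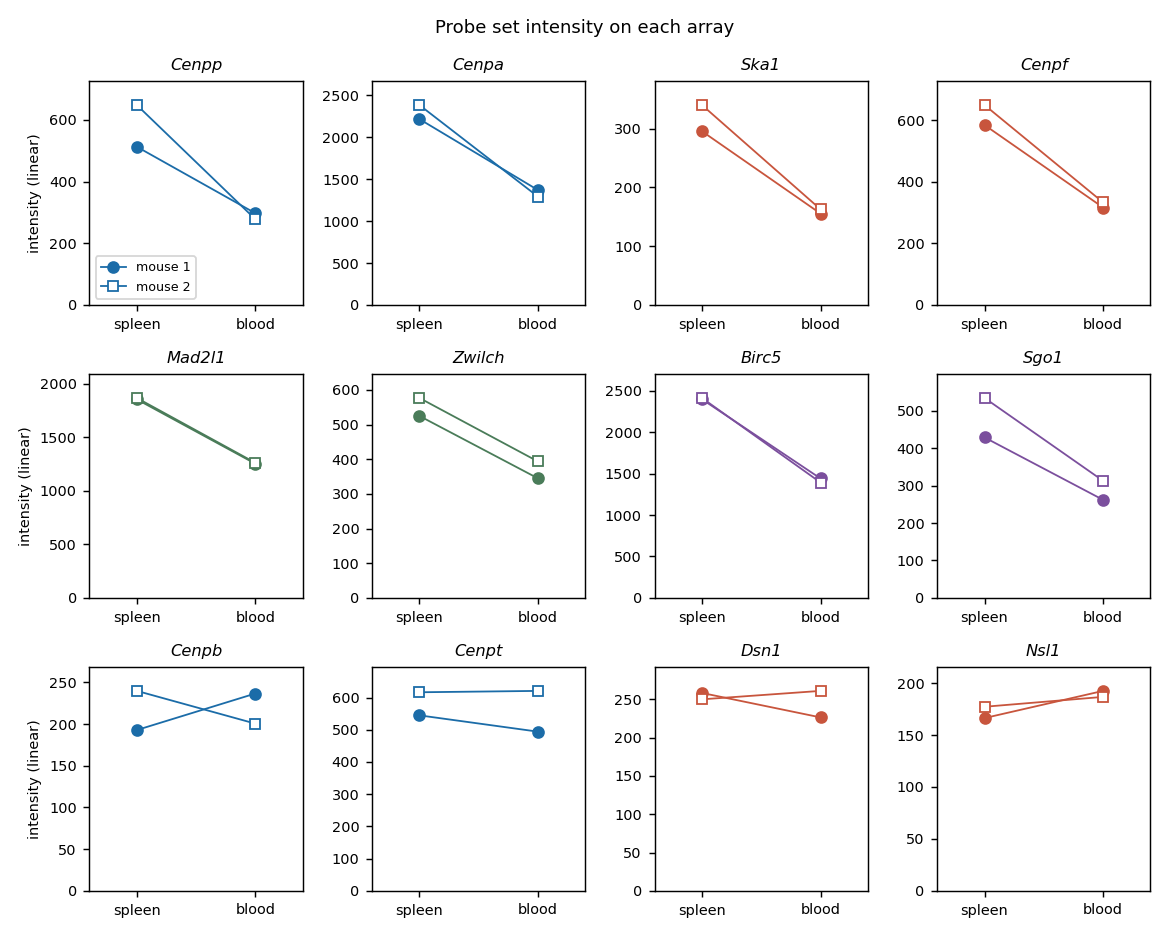
Intensity on a linear axis from 0 for 12 members, with spleen left and blood right in each panel, and a line joining the 2 arrays of mouse 1 (filled circles) or mouse 2 (open squares). The first 8 panels show the leading 2 genes of each role group by the smaller of their 2 within-mouse differences. In the last 4, Cenpb, Cenpt, Dsn1 and Nsl1, the lines cross, lie flat or go down toward spleen.

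Among the outer kinetochore members, Ska1, Nuf2, Cenpf, Spc25 and Cenpe had the largest differences, and Nsl1, Dsn1 and Pmf1 of the Mis12 complex the smallest. The Ndc80 complex is the main coupler to microtubules. Its subunit Nuf2 had 661 and 839 in spleen, against 370 and 410 in blood. Spc25 had 804 and 866 in spleen, against 454 and 434 in blood. Spc24 had 615 and 693 in spleen, against 353 and 445 in blood. Ndc80 itself, the subunit with the microtubule-binding head, had 270 and 272 in spleen and 194 and 195 in blood. In all 4 subunits both spleen arrays lay above both blood arrays.

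The differences of the 4 subunits were 0.91 ± 0.15 for Nuf2, 0.89 ± 0.11 for Spc25, 0.70 ± 0.15 for Spc24 and 0.45 ± 0.11 for Ndc80, with limma adjusted p from 0.140 to 0.234. In mouse 2 Nuf2 reached 2-fold, with a difference of 1.00, and Spc25 stood at 0.97. In mouse 1 they were at 0.81 and 0.80. A second, dim probe set of Spc25 had intensities between 65.2 and 82.6, and with the mean of both the difference was 0.48.

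Cenpe, the kinesin that moves chromosomes to the spindle equator, and Cenpf, a large protein of the outermost layer, had differences of similar size. Cenpe had 498 and 494 in spleen of mouse 1 and mouse 2, against 249 and 286 in blood, a difference of 0.86 ± 0.12 (limma adjusted p = 0.140). Its second probe set gave 0.88. Cenpf had 584 and 649 in spleen, against 316 and 333 in blood, a difference of 0.89 ± 0.12 (limma adjusted p = 0.140).

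The 3 probe sets of Cenpf did not go one way. One other gave 217 and 201 in spleen, against 112 and 136 in blood, a difference of 0.69. The remaining one gave 282 and 308 in spleen, against 337 and 364 in blood, and so was lower in spleen in both mice, by -0.24 and -0.23. Its intensity was well above the filter and its 2 mice agreed closely. With the mean of the 3 probe sets Cenpf differed by 0.45. Where these probe sets lie in the gene is not known here.

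The Ska complex helps the Ndc80 complex to follow shrinking microtubule ends. Ska1 had 295 and 340 in spleen, against 155 and 163 in blood, a difference of 0.93 ± 0.12 (limma adjusted p = 0.140). With the mean of its 3 probe sets the difference was 0.46. The 2 above the filter gave 0.93 and 0.67, while the third had a mean intensity of 12.8, far below the filter. Ska2 had 574 and 544 in spleen, against 443 and 411 in blood, a difference of 0.38 ± 0.11. The spleen arrays of both genes lay above the blood arrays. Ska3, below the filter, had 89.3 and 68.7 in spleen and 59.2 and 70.8 in blood, where the groups overlapped. It differed by 0.49 in mouse 1 and -0.04 in mouse 2 and was not tested.

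Knl1, the scaffold that holds Bub proteins, had 388 and 390 in spleen, against 248 and 217 in blood, a difference of 0.71 ± 0.12 (limma adjusted p = 0.150), and its second probe set gave 0.68. Zwint, which binds Knl1 and the RZZ complex, had 1642 and 1569 in spleen, against 1327 and 1377 in blood, a difference of 0.25 ± 0.11. Of the 7 probe sets of Zwint 4 had that direction, as did 3 of the 5 above the filter, and the mean of all 7 gave 0.06. The 2 partners in the scaffold thus had unequal differences by their brightest probe sets.

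The Mis12 complex links the inner layer to Knl1 and the Ndc80 complex, and its 4 subunits ranged from a clear separation of the tissues to the opposite direction. Mis12 had 253 and 244 in spleen of mouse 1 and mouse 2, against 183 and 152 in blood, a difference of 0.54 ± 0.13. Pmf1 had 749 and 796 in spleen, against 647 and 684 in blood, a difference of 0.21 ± 0.11. Without _s_at and _x_at probe sets Pmf1 differed by 0.09. Both genes had their spleen arrays above their blood arrays.

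Dsn1 had 258 and 250 in spleen, against 226 and 261 in blood. The blood arrays enclosed the spleen arrays, and the difference was 0.06 ± 0.12, at 0.18 in mouse 1 and -0.06 in mouse 2. Nsl1 had 166 and 177 in spleen, against 192 and 187 in blood, the only tested member whose spleen arrays both lay below its blood arrays. Its difference was -0.13 ± 0.11 (limma adjusted p = 0.661). The second probe set of Nsl1 gave 146 and 167 in spleen, against 119 and 131 in blood, a difference of 0.29, and the mean of both gave 0.08, so its direction depends on the probe set.

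Checkpoint members split into 2 genes with a clear difference and 4 with a small one. Mad2l1, the protein that is converted at free kinetochores into an inhibitor of the anaphase-promoting complex, had 1855 and 1868 in spleen, against 1253 and 1262 in blood, a difference of 0.56 in each mouse (SE 0.11, limma adjusted p = 0.180). Zwilch, of the RZZ complex that brings dynein and Mad proteins to the kinetochore, had 525 and 577 in spleen, against 345 and 394 in blood, a difference of 0.56 ± 0.13. In both genes the tissues did not overlap.

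The other subunits of the RZZ complex showed less. Kntc1 had 347 and 475 in spleen, against 313 and 361 in blood, where the groups overlapped, and a difference of 0.26 ± 0.18 that was 0.48 without spleen replicate 1 and 0.04 without spleen replicate 2. Zw10, which also acts in membrane traffic, had 552 and 550 in spleen, against 489 and 508 in blood, a difference of 0.14 ± 0.11. Its spleen arrays were the higher ones, by a small margin.

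Bub3, part of the mitotic checkpoint complex, had 3579 and 3512 in spleen, against 3098 and 3184 in blood, a difference of 0.17 ± 0.11. Its tissues were separate but close, and a second bright probe set gave 0.27. Mad1l1, the anchor of Mad2, had 246 and 332 in spleen of mouse 1 and mouse 2, against 223 and 315 in blood. Both arrays of mouse 2 were brighter than both arrays of mouse 1, the tissues overlapped, and the difference was 0.10 ± 0.21. It turned to -0.10 without spleen replicate 2, to -0.13 without blood replicate 1 and to -0.07 with the mean of both probe sets. The second probe set of Mad1l1 was below the filter.

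Passenger complex and shugoshin members were higher in spleen without exception by their brightest probe sets, and 4 of the 5 were at least 1.5-fold higher in both mice. Birc5, known as survivin, a targeting subunit of the passenger complex and an inhibitor of apoptosis family protein, had 2396 and 2412 in spleen, against 1441 and 1392 in blood. Cdca8, known as borealin, had 2440 and 2679 in spleen, against 1570 and 1680 in blood. Incenp, the scaffold that activates Aurora B, had 1559 and 1491 in spleen, against 951 and 956 in blood. In each gene the 2 arrays of a tissue lay close together and far from those of the other tissue.

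The differences were 0.76 ± 0.11 for Birc5 (1.69-fold, limma adjusted p = 0.140), 0.65 ± 0.12 for Cdca8 (1.57-fold, limma adjusted p = 0.168) and 0.67 ± 0.11 for Incenp (1.59-fold, limma adjusted p = 0.144). The 3 probe sets of Cdca8 gave 0.65, 0.79 and 0.79. A second bright probe set of Incenp gave 0.67, while 3 dimmer ones gave between -0.31 and 0.11, and the mean of all 5 gave 0.23.

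Sgo1, the protector of centromeric cohesin in mitosis, had 429 and 534 in spleen, against 262 and 313 in blood, a difference of 0.71 ± 0.16 (limma adjusted p = 0.210), and its second probe set gave 0.55. Sgo2a, the shugoshin best known from meiosis, had 347 and 341 in spleen, against 242 and 247 in blood, a difference of 0.47 ± 0.11 (limma adjusted p = 0.226). Both genes were separate between the tissues.

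Over all 85 probe sets, directions agreed less among the dim ones. Beside the 40 probe sets used, 29 others of the same genes reached the filter, of which 19 were higher in spleen in both mice, 4 lower in both and 6 opposite, with a median difference of 0.27. Of the 16 others below the filter, 6 were higher in both, 7 lower in both and 3 opposite, with a median of -0.05. Over all genes tested, by their brightest probe sets, 38.5% were higher in both, 25.1% lower in both and 36.4% opposite. The 6 of 16 is near the first of these shares. Shares over the other probe sets of all genes were not computed. The median of the 40 probe sets used was 0.46. When the probe sets of each gene were averaged, 35 of 39 members were higher in spleen in both animals, with a median of 0.45.

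**Figure D4:**
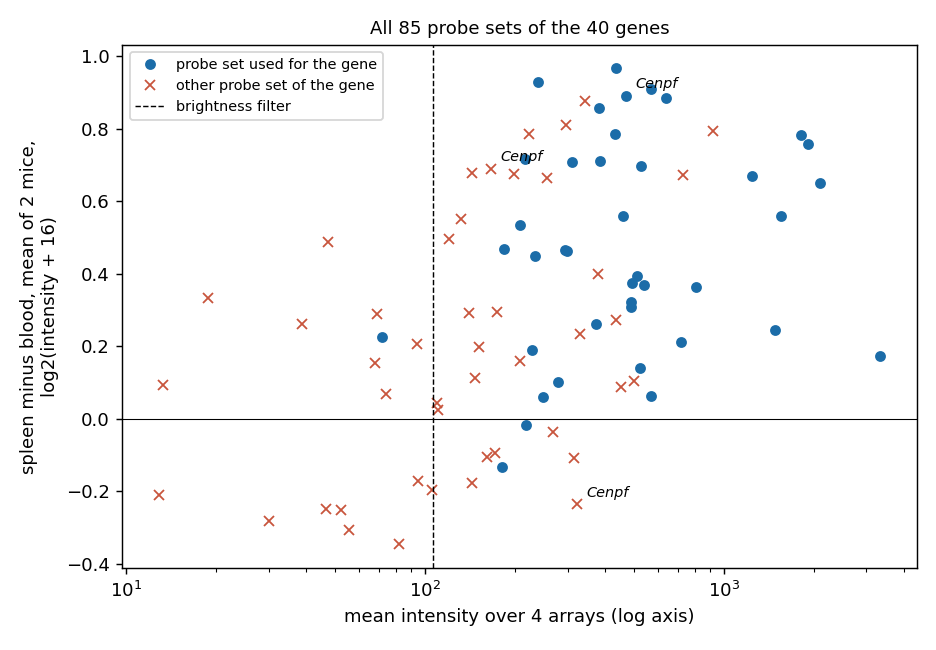
Mean spleen minus blood difference of the 2 mice on the log2(intensity + 16) scale (vertical) against mean intensity over the 4 arrays (horizontal, log axis) for 85 probe sets of 40 genes. Blue circles are the probe sets used, red crosses the others, and the dashed line is the brightness filter at 106. Crosses left of the line scatter around 0, and the 3 probe sets of Cenpf are labelled, 1 of them below 0.

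Other genes of the pathway were also mostly higher in spleen. Of a list of 29 further centromere and kinetochore genes, 26 had a probe set and 24 were tested, and 20 of these (83.3%, against 38.5% of all genes) had higher intensities in spleen of both animals. Their median difference was 0.37. The list overlaps in function with the members and was chosen with earlier results of these data known. By limma 0 passed over all genes, and with the intensity trend 2 did. Bub1, a kinase of the checkpoint, had 546 and 633 in spleen, against 251 and 301 in blood, a difference of 1.05 ± 0.14, and was the only one of them at least 2-fold higher in both mice.

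Spdl1, the adaptor of dynein at kinetochores, had 276 and 268 in spleen, against 145 and 146 in blood, a difference of 0.83 ± 0.11. The kinase Ttk, which starts the checkpoint signal, had 448 and 491 in spleen and 254 and 264 in blood, a difference of 0.82 ± 0.12. Aurkb, the kinase of the passenger complex, had 794 and 831 in spleen and 460 and 440 in blood, a difference of 0.83 ± 0.11. In these 3 genes the tissues did not overlap, and the difference of Aurkb was near that of Birc5. The dynein regulator Ndel1 was lower in spleen in both mice, by -0.11 and -0.38.

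Beside related gene lists, the members lay between the mitotic cyclins and the replication genes. Mitotic cyclins and activators of the anaphase-promoting complex had a median difference of 0.67 over 9 tested genes, cohesin and condensin genes 0.36 over 19 and DNA replication genes 0.32 over 26. The share of genes higher in spleen in both mice was similar, at 88.9%, 94.7% and 92.3%. The share at least 1.5-fold higher in both mice was 55.6% of the mitotic cyclin list, 5.26% of the cohesin and condensin list and 3.85% of the replication list, beside 38.5% of the members. No test between the lists was made.

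Markers of other blood cells also differed between the arrays. The 11 measured granulocyte markers were all lower in spleen in both mice, with summed intensities of 4488 and 1236 in spleen of mouse 1 and mouse 2, against 7215 and 18526 in blood. Spleen over blood was therefore 0.622 in mouse 1 and 0.0667 in mouse 2. The antimicrobial peptide gene Camp stood below 0 in spleen of mouse 2 and at 412 in blood of mouse 2, and S100a8 stood at 1185 and 178 in spleen, against 2346 and 5601 in blood. Within mouse 1 alone 37 of 39 members were higher in spleen (62.3% of all genes), and within mouse 2 alone 36 were (51.1%).

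Erythroid markers summed to 9102 and 8294 in spleen, against 9683 and 9518 in blood, and 6 of 8 measured ones were above the filter on every array. Hba-a1 and Alas2 were below the filter on every array. Megakaryocyte markers summed to 30318 and 30900 in spleen, against 26343 and 25796 in blood. Of the 11 tested ones, 10 (90.9%) were higher in spleen in both mice, against 38.5% of all genes tested. Their median difference was 0.31 in mouse 1 and 0.26 in mouse 2. Macrophage and monocyte markers summed to 2391 and 1231 in spleen, against 1633 and 3531 in blood, and 4 of 11 measured ones were above the filter on every array. In mouse 1, 8 of the 11 were higher in spleen, and in mouse 2, 3 were. The complement genes C1qa, C1qb and C1qc stood at 132, 273 and 231 in spleen of mouse 1, and C1qa was below 0 on the other arrays. T and NK cell markers summed to 8005 and 5423 in spleen, against 7126 and 9716 in blood. Of the 10 measured ones, 3 were higher in spleen in mouse 1 and 2 in mouse 2. B cell markers summed to 876 and 825 in spleen, against 759 and 790 in blood, with Cd79a, Cd79b and Ms4a1 below the filter on every array. The other B cell markers were above it on every array: Pax5 had 350 and 296 in spleen, against 291 and 250 in blood, and Ighm had 408 and 407 in spleen, against 347 and 412 in blood.

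The part of such cells in the differences of the members was not tested.

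**Figure D5:**
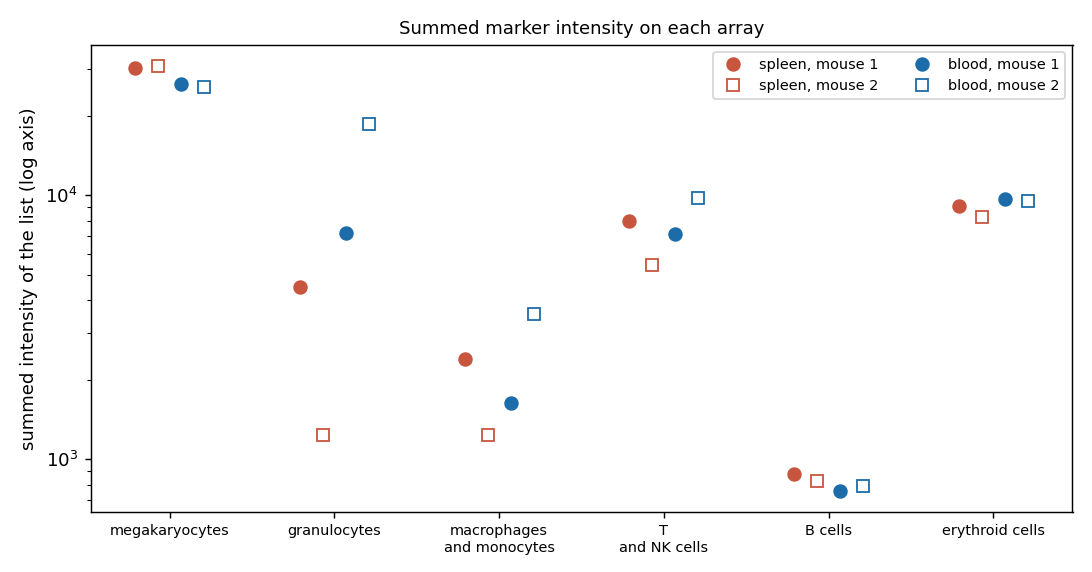
Summed intensity of the measured markers of 6 cell types (vertical, log axis) on the 2 spleen arrays (red) and 2 blood arrays (blue) of mouse 1 (filled) and mouse 2 (open). Granulocyte markers span the widest range, from 1236 in spleen of mouse 2 to 18526 in blood of mouse 2, while megakaryocyte, B cell and erythroid sums lie close together on all 4 arrays.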

How the data were processed

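Gene expression was measured on 4 one-colour Affymetrix mouse arrays from biotinylated cRNA, per the labels' protocols. The authors deposited probe set intensity values on a linear scale. Array medians lie close together and between 1.60% and 2.17% of the deposited values of an array are below 0. The authors' summary of probes, background step and array scaling are not given in the labels used here.

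Negative values were raised to 0 and log2(intensity + 16) was computed. Of 45101 probe sets, 34945 were paired with 1 gene symbol, 932 with several and 9211 were not listed. The 64 control probe sets were left out, and most of them are also counted among those with several symbols or not listed. Entrez identifiers gave current symbols from RefSeq (GRCm38.p6), which was used for names and promoter windows. Each of the 18193 genes took its probe set with the highest mean. The 11614 with a mean of at least the median probe set, an intensity of 106, were fitted by tissue alone in limma 3.58.1 (R 4.3.3; lmFit, eBayes, two-sided tests), and p-values were adjusted by Benjamini-Hochberg over all genes. Errors of differences are SEs of this fit. The arrays of one number come from the same mouse per the labels; the difference between mice in spleen and in blood correlated at r = 0.10 across genes, which are not independent. Mouse as a block was an alternative. The number of arrays limits the precision. The SEs and p-values combine a gene's spread between 2 animals with a prior variance that eBayes estimates over all genes fitted. They therefore do not measure the spread between the animals alone. The lowest SE of a member was 0.109, for Ndc80, whose 2 arrays of each tissue were nearly equal.

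Every member is named. Values of all 4 arrays are given for the leading members of each role, for those in opposite directions in the mice and for those whose probe sets disagree, and here for nearly all. The members and lists were chosen with earlier results of these data known. The fit was tested on simulated data. The simulated shifts were larger than the fitted difference of every member, and the simulated arrays were not paired by mouse. The simulation therefore does not show how the fit performs for differences of the size seen in the members.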

Additional observations from a re-analysis of the deposited data

Results flagged for a closer look

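Spleen minus blood had opposite directions in the 2 mice for 4 members, and the difference between the mice was not tested, there being 1 array for each tissue and mouse. The difference in mouse 2 minus that in mouse 1 was 0.52 for Cenpb, -0.15 for Cenpt, -0.24 for Dsn1 and -0.52 for Ska3, which was below the brightness filter. Opposite directions were found for 36.4% of all genes tested and for 3 of 39 tested members. Among other genes of the pathway the same held for Bod1 (0.25), Itgb3bp (-0.40), Clasp1 (-0.33) and Cenpv (-1.08), which was also below the filter. The summed markers of macrophages and monocytes and of T and NK cells were higher in spleen of mouse 1 and lower in spleen of mouse 2. Their log2 ratios differed by -2.07 and -1.01 between mouse 2 and mouse 1. Most single T and NK cell markers did not turn with their sum, and their median difference was -0.15 in mouse 1 and -0.24 in mouse 2. Gzma, one of them, stood at 2757 and 171 in spleen, against 1338 and 3486 in blood.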

How the results depend on the processing

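The number of members higher in spleen in both mice was 35 of 39 with an offset of 64 or of 4 and with quantile normalization. It was also 35 of 39 with the mean of all probe sets and with the replicate block. The number was 35 of 40 with no filter, 37 with arrays centred on the median and 32 of 35 with a stricter filter. Without _s_at and _x_at probe sets the count was 34. With 1 array left out this count cannot be computed. The median difference of the members was 0.40 with an offset of 64, 0.49 with an offset of 4, 0.46 with quantile normalization, 0.51 with centred arrays, 0.45 with the mean of all probe sets and 0.46 in mouse 2 alone, a setting chosen after seeing the data. For inner centromere members it was 0.35 with an offset of 64, 0.34 with quantile normalization, 0.42 with centred arrays, 0.37 with a stricter filter and 0.37 with the mean of all probe sets. For outer kinetochore members it was 0.53 with an offset of 64, 0.54 without a filter, 0.70 with a stricter filter and 0.46 with the mean of all probe sets. For passenger and shugoshin members it was 0.63 with an offset of 64, 0.61 with quantile normalization and 0.71 with centred arrays. For the same members it was 0.63 with the mean of all probe sets and 0.71 without _s_at and _x_at probe sets. Leaving out 1 array at a time gave medians between 0.44 and 0.51 for the members, 0.32 and 0.46 for inner centromere, 0.54 and 0.61 for outer kinetochore, 0.16 and 0.39 for checkpoint and 0.58 and 0.72 for passenger and shugoshin members. The count of genes past the adjusted threshold was 45 with an intensity trend, between 0 and 20 with 1 array left out, and 0 with mouse as a replicate block, where the smallest adjusted p by limma was 0.173 and no other call changed.

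Directions turned in genes with small differences and in Cenpo. Cenpb was at 0.026 with centred arrays, and between -0.16 and 0.13 with 1 array left out. Leaving out 1 array put Cenpt between -0.10 and 0.22, Dsn1 between -0.036 and 0.16 and Mad1l1 between -0.13 and 0.34. With the mean of all probe sets Mad1l1 was at -0.074 and Nsl1 at 0.080. Cenpo, with a difference of 0.32 by its brightest probe set, was at -0.093 without _s_at and _x_at probe sets. The cause was not tested. Signal over background limits the dim probe sets, and 2 animals limit every test.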
